A study of Mus musculus with 4 samples.

Results

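The 47 genes described here make ribosomes: they encode nucleolar processing factors, subunits of RNA polymerases I and III and their factors, and enzymes of polyamine and pyrimidine synthesis. They were chosen by name, as the genes of a list of 50 that have a probe set on the array annotated with exactly 1 gene symbol, out of 30145 genes with such a probe set. Only Polr3a had more than 1 such probe set, and the one with the higher mean over the 4 arrays was used. The other 3 genes of the list, Gnl3, Nop56 and Taf1d, sit on probe sets that also carry the symbol of a small RNA or a predicted gene, and are named without values.

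The samples were lineage-negative, c-Kit-positive marrow progenitors (LK cells) of NOD mice, a strain that develops autoimmune diabetes. All were held for 4 h at 37 °C in StemSpan medium. The 2 vehicle samples received DMSO, and the 2 combination samples received dmPGE2 (10 µM), a stable analog of prostaglandin E2, together with the synthetic glucocorticoid dexamethasone (10 µM). No array carried either drug alone, and the labels give neither the age nor the sex or number of the mice. The series design calls the duplicates biological without naming their source, so p-values measure only the spread between these samples.

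A ribosome is built in the nucleolus. RNA polymerase I transcribes the long precursor of the large ribosomal RNAs, RNA polymerase III makes the 5S RNA and the tRNAs, small nucleolar ribonucleoproteins (snoRNPs) modify and fold the precursor, and successive assembly factors cut it and join it to ribosomal proteins. In dividing blood progenitors this pathway takes up much of the cell's synthesis, and the transcription factor MYC, paired with MAX, is known to drive many of its genes.

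The promoters of these genes show features that can be set beside the array values. RefSeq (assembly GRCm38.p6) gave promoter windows, from 250 bases before to 50 bases after a start, for 39 of the 47 genes, with 48 start sites. The E-box CACGTG, the palindrome that MYC and MAX bind, occurred at 8 of these 48 starts (16.7%), against 7.15% of all 32851 starts in the table and 10.4% of the 7904 starts of other genes in the same signal range. The ETS site CCGGAAG, searched on both strands, occurred at 17 starts (35.4%), against 8.86% and 21.0%. The GC box GGGCGG occurred at 70.8%, against 35.7% and 63.3%, and the cAMP response element TGACGTCA at 1 start (2.08%), against 1.79% and 3.33%. The glucocorticoid half-site AGAACA occurred at 6 starts (12.5%), against 19.0% and 12.3%. The E-box and the ETS site shared a start 4 times and never overlapped. The median GC content was 59.5% in these windows and 61.0% in those of the other genes in the signal range. These motifs were picked with the array results known, and a match is a description of the letters only.

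The stretches below begin 75 bases before the start and end 1 base before it or 25 bases after it, on the strand of the gene, which is the plus strand in all 7. E-boxes (CACGTG) and ETS sites (CCGGAAG or its complement CTTCCGG) are in capitals. Polr1b (chr2:129100921-129100995) and Heatr1 (chr13:12395300-12395374) are shown because they were the lowest and the highest of the 47 in the combination against vehicle. Nop2 (chr6:125131808-125131882), Rrn3 (chr16:13780624-13780723), Pes1 (chr11:3963900-3963999), Utp4 (chr8:106893565-106893664) and Wdr43 (chr17:71616140-71616239) are shown because a whole E-box lies within such a stretch. In Tsr1, Utp20 and Mybbp1a, not shown, the E-box begins at base 25, 38 and 41 of the transcript.
Polr1b: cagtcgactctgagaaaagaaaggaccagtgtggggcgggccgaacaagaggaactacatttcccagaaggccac
Heatr1: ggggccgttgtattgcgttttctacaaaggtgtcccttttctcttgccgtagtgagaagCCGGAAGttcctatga
Nop2: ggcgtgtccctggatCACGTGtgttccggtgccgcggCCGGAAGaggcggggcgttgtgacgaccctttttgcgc
Rrn3: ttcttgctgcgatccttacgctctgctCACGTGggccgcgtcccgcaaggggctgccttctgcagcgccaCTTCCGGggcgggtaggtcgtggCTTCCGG
Pes1: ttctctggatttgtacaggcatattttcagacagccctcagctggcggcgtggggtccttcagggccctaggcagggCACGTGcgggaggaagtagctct
Utp4: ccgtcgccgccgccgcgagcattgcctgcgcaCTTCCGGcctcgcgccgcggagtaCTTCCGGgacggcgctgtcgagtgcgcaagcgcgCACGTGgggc
Wdr43: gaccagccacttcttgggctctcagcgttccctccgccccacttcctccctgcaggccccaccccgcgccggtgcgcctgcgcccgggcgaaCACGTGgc

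In these lines the E-box begins 60 bases before the start of Nop2 and 48 before that of Rrn3, and at base 3, 16 and 18 of the transcript for Pes1, Utp4 and Wdr43. Heatr1 has an ETS site from 16 to 10 bases before its start, and the stretch of Polr1b has neither motif. The 8 genes with an E-box in a window (these 5, Mybbp1a, Tsr1 and Utp20) were all lower in the combination, with a median log2 difference of -0.36, and the 31 without had 29 lower and a median of -0.23. The 16 genes with an ETS site had 14 lower and a median of -0.11, and the 23 without had all 23 lower and a median of -0.31. These differences between motif classes were not tested.

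Array values below are log2 RMA signals, listed for vehicle 1, vehicle 2, combination 1 and combination 2 in that order, and differences are combination minus vehicle. Of the 47 genes, 44 were lower in the combination, with a median difference of -0.23, which is 85.3% of the vehicle signal. The median over all 65956 features was 0.02, with 44.6% of them lower. Among the 10092 other genes whose mean signal lay within the range of the 47, the median was -0.06 and 62.1% were lower. For the 7352 protein-coding genes of that range the median was -0.08 and 64.3% were lower. Of these, 26.5% lay below vehicle without overlap and 6.26% were lower at an unadjusted limma p under 0.05. In 24 of the 47 genes both combination arrays lay below both vehicle arrays (51.1%), against 13.9% of all features and 23.4% of the genes in the signal range. In 1 gene, Heatr1, both lay above, against 20.4% of all features and 11.8% of the genes in the signal range, and in 22 the groups overlapped. Among the 24, the nearest arrays of the 2 groups were 0.022 (Lyar) to 0.70 (Polr1b) apart. None of the 47 genes passed limma's test at an adjusted p under 0.05 over all features, which 0.00303% of all features did, and the adjusted p-values ran from 0.49 to 1.00. At an unadjusted p under 0.05 in limma, 9 genes were lower (19.1%) and 1 was higher, against 2.44% of all features and 5.37% of the genes in the signal range that were lower. Higher at that p were 2068 of the 65956 features and 333 of the 10092 genes in the signal range.

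**Figure D1:**
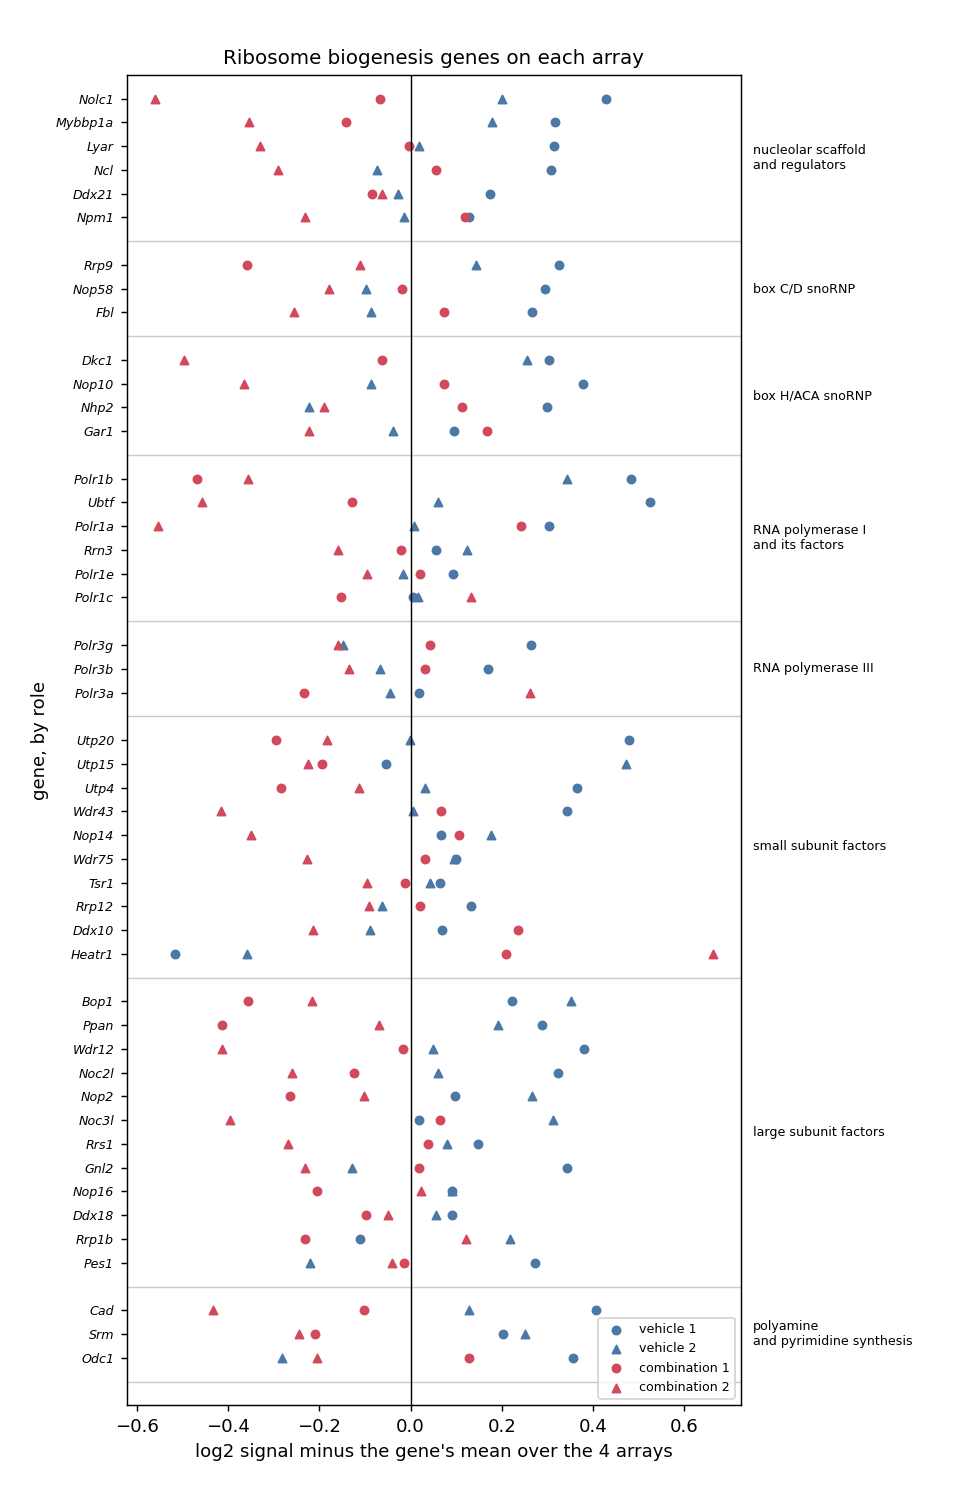
Log2 signal of each of the 47 genes on each array, minus the gene's own mean over the 4 arrays, in rows grouped by role; blue is vehicle, red is combination, circles are number 1 and triangles number 2. Red points lie left of blue ones in most rows, without overlap in 24 of 47, and Heatr1 runs the other way.

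These counts rest on 4 arrays and moved with single ones. The 44 lower genes became 36 without vehicle 1, 45 without vehicle 2, 43 without combination 1 and 40 without combination 2, and the 9 with an unadjusted limma p under 0.05 became 3, 3, 6 and 4. The median difference was -0.18, -0.34, -0.32 and -0.12 in the same order. The arrays numbered 1 also read higher than those numbered 2 for these genes. Vehicle 2 lay below vehicle 1 in 37 of 47 genes (median gap -0.16), and combination 2 below combination 1 in 33 (median gap -0.165). Within a number, 42 genes were lower on combination 1 than on vehicle 1 (median -0.25) and 41 were lower on combination 2 than on vehicle 2 (median -0.22). In 37 genes both held, a share of 78.7%, against 39.5% of the genes in the signal range and 43.2% of the protein-coding ones there.

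Markers of cell types also differed between the arrays. Progenitor markers were present, with Kit at 10.18, 10.32, 10.51 and 9.62 and Mpo, the myeloperoxidase gene, at 17.86, 18.13, 17.63 and 17.88. Of the 11 measured of 12 LK progenitor markers, 11 were lower in the combination, with a median of -0.24, near that of the 47 genes. Their summed linear signal was 248008 and 298944 with vehicle and 210882 and 250821 with the combination. Mpo, by far the brightest of the 11, made up nearly all of that sum, and its own arrays overlapped with a difference of -0.24. The other cell type lists gave medians of 0.12 for 10 neutrophil markers (8 not lower), -0.41 for 10 monocyte and macrophage markers, -0.27 for 6 B cell, 0.17 for 5 T cell, -0.43 for 4 erythroid, 0.10 for 5 platelet and -0.24 for 6 mast cell markers. Single markers in these lists, picked here after their values were seen, differed far more: the platelet chemokine gene Ppbp by 5.52, the neutrophil receptor gene Cxcr2 by 4.32, and the monocyte and macrophage genes Cd14 by 2.43, Mrc1 by -2.19 and Ccr2 by -1.77. None of these 5 passed at an adjusted limma p under 0.05 (from 0.13 for Ppbp to 0.66 for Mrc1). Neutrophil markers summed to 64665 and 20734 with vehicle and 71695 and 40498 with the combination, and those of monocytes and macrophages to 4762, 7858, 4405 and 5510. Most of the higher neutrophil sum in the combination came from Cxcr2 alone (9.06, 8.87, 12.75 and 13.83). The 2 lower neutrophil markers, Csf3r and Ly6g, differed by -0.83 and -0.33. Other markers of that list differed mainly between the numbers. Camp read 13.51, 7.63, 12.80 and 8.41, Ltf 10.38, 5.60, 10.22 and 6.04, and Retnlg 6.13, 3.81, 6.92 and 4.06. Vehicle 2 lay below vehicle 1 in 9 of the 10 neutrophil markers, and combination 2 below combination 1 in 8. Among the 11 LK progenitor markers these counts were 2 and 3. All 5 T cell markers and 4 of 6 B cell markers read no higher on any array than the brightest background probe set (5.55). The part of these shifts in the result was not tested. In bulk samples, fewer cells of a type and less RNA per cell cannot be told apart.

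**Figure D2:**
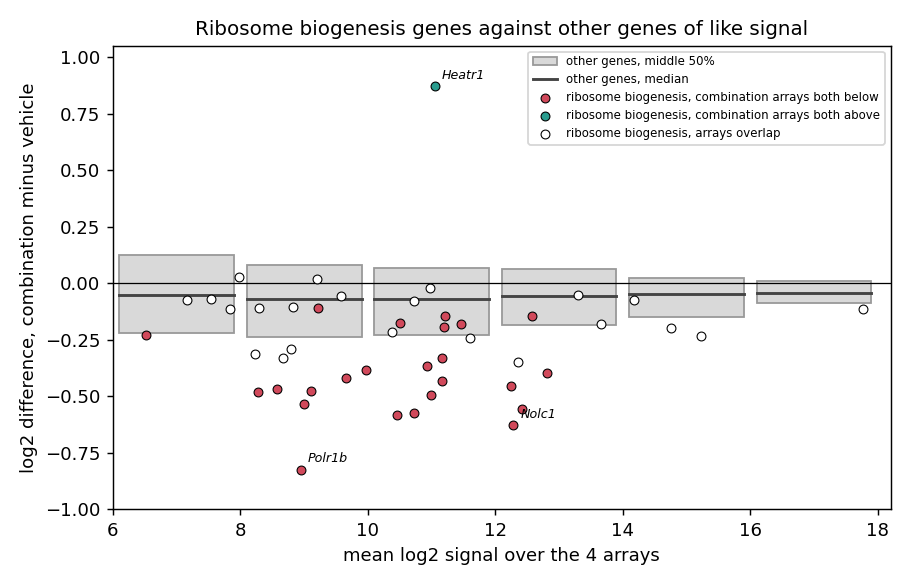
Log2 difference (combination minus vehicle) against mean log2 signal for the 47 genes (points) over the middle 50% (boxes) and median (lines) of other genes in bins of 2 log2 units. Most points lie below the median line of their bin, Polr1b lowest and Heatr1 highest.

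Set against genes of like signal, the shift was seen in most of the range. Of the 15 genes with a mean between 8 and 10, 14 were lower with a median of -0.33, while the 3527 other genes there had a median of -0.07. Of the 15 between 10 and 12, 14 were lower with a median of -0.21, against -0.07 for 1900 others, and all 8 between 12 and 14 were lower with a median of -0.37, against -0.06 for 747 others. The 5 genes with a mean between 6 and 8 had a median of -0.08, against -0.05 for 3289 others. The 4 with a mean above 14, Npm1, Ncl, Nop58 and Odc1, differed by -0.11, -0.23, -0.20 and -0.08, and their arrays overlapped.

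RNA polymerase I and its factors were represented by 6 genes, all lower, of which 3 did not overlap. Both combination arrays lay below both vehicle arrays in 13.9% of all features and 23.4% of the genes in the signal range. Polr1b, the second-largest catalytic subunit of the polymerase, read 9.43 and 9.29 with vehicle and 8.48 and 8.59 with the combination. The nearest arrays of the 2 groups were 0.70 apart, the widest gap among the 47 genes. Its difference was -0.82 (SE 0.14), or 1.77-fold lower, with an unadjusted p of 0.0025 and an adjusted p of 0.49 in limma. The difference stayed between -0.89 and -0.75 when any 1 array was left out. RefSeq places Chchd5 and the noncoding RNA gene Gm46764 beside Polr1b. Chchd5 read 6.51, 6.23, 5.93 and 6.27, with overlap, a difference of -0.27. Whether signal from a neighbour enters the Polr1b probe set was not tested. Ubtf, the HMG-box factor that opens ribosomal DNA for transcription, read 10.98, 10.51, 10.33 and 10.00, without overlap, and differed by -0.58 (SE 0.22). Rrn3, which couples the polymerase to its promoter factors, read 10.55, 10.62, 10.48 and 10.34, again without overlap, but with a difference of only -0.18.

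The other 3 polymerase I genes overlapped. Polr1a, the largest subunit, read 8.53, 8.23, 8.46 and 7.67, so that combination 2 alone was low, and its difference of -0.31 was 0.086 without that array. Polr1e, part of the subunit pair that helps initiation and elongation, differed by -0.08. Polr1c, which polymerases I and III share, read 10.97, 10.98, 10.81 and 11.10, with combination 1 lowest and combination 2 highest. The differences among the 6 genes ran from -0.82 for Polr1b to -0.02 for Polr1c, and whether genes of the enzyme differed from each other was not tested.

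RNA polymerase III was the role group with the smallest median, -0.10, and all 3 of its genes overlapped. Polr3a, its largest subunit, read 8.0, 7.94, 7.75 and 8.24 and differed by 0.03. Polr3b, the second-largest subunit, read 8.996, 8.76, 8.86 and 8.69, and Polr3g, the subunit form typical of stem and tumour cells, differed by -0.12. With SEs of 0.16 to 0.21, differences of this size were not detectable with 4 arrays.

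**Figure D3:**
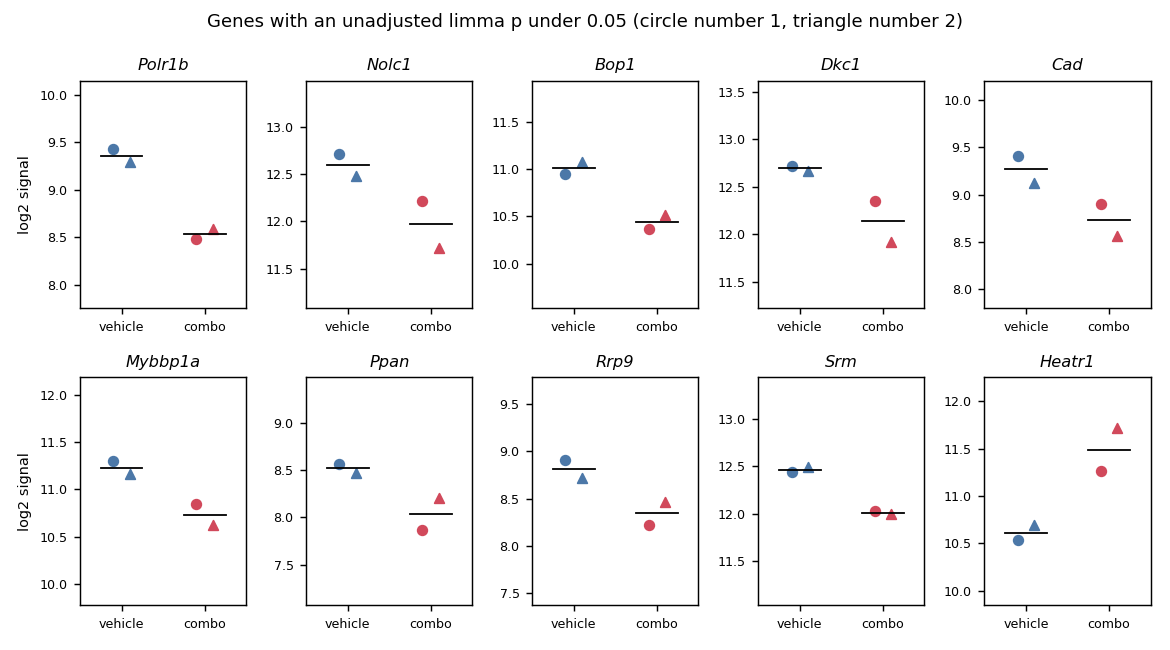
Log2 signal per array of the 10 genes with an unadjusted limma p under 0.05 (9 lower, Heatr1 higher), with vehicle in blue and combination in red, circles for number 1, triangles for number 2 and lines for group means. All panels span the same height, and in each the 2 groups do not overlap.

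The nucleolar scaffold genes and regulators, 6 genes, were all lower, on both numbers, with a median of -0.28. Nolc1, a phosphoprotein that chaperones snoRNPs between the nucleolus and Cajal bodies, read 12.71 and 12.48 with vehicle and 12.21 and 11.72 with the combination. It did not overlap and differed by -0.63 (SE 0.22), 1.54-fold lower, the second-largest downward difference. Mybbp1a, a nucleolar repressor of polymerase I and partner of MYB, read 11.30, 11.16, 10.84 and 10.63 and differed by -0.50 (SE 0.15), 1.41-fold lower. Lyar, a nucleolar zinc-finger protein, and the helicase gene Ddx21 also did not overlap, with differences of -0.33 and -0.15. Their nearest arrays were only 0.022 and 0.034 apart. The abundant nucleolar proteins were less separated: Npm1, the nucleophosmin gene, read 17.89, 17.75, 17.88 and 17.53, and Ncl, the nucleolin gene, read 15.53, 15.15, 15.28 and 14.94. In both, combination 1 lay above vehicle 2.

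The snoRNP genes came in both kinds, with and without overlap. Box C/D particles guide methylation of ribosomal RNA. Fbl, their methyltransferase fibrillarin, read 13.92, 13.57, 13.73 and 13.40 and differed by -0.18, and the core protein gene Nop58 by -0.20, both with overlap. Rrp9, which binds the U3 snoRNA that starts precursor processing, read 8.90, 8.72, 8.22 and 8.47, without overlap, and differed by -0.47 (SE 0.16), 1.38-fold lower.

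Box H/ACA particles convert uridine to pseudouridine, and their 4 proteins were all measured. Dkc1, the pseudouridine synthase dyskerin, read 12.72 and 12.67 with vehicle and 12.35 and 11.92 with the combination. It did not overlap and differed by -0.56 (SE 0.19), 1.47-fold lower. The other 3 overlapped: Nop10 differed by -0.29, Nhp2 by -0.08 and Gar1 by -0.06. Gar1 read 9.68, 9.55, 9.75 and 9.36, so combination 1 was its highest array.

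Assembly of the small subunit begins on the nascent precursor with the processome, a very large particle. Of 10 genes for its proteins and for later factors, 8 were lower and 5 did not overlap in that direction, with a median of -0.22. Such separation was seen in 13.9% of all features and 23.4% of the genes in the signal range. Utp20, a long helical-repeat scaffold protein, read 9.59, 9.11, 8.82 and 8.93 and differed by -0.48. Utp4 read 13.17, 12.84, 12.52 and 12.69, Utp15 read 9.60, 10.13, 9.46 and 9.43, and they differed by -0.40 and -0.42. Wdr75 and Tsr1, a GTPase-like factor of late maturation, did not overlap either but differed by only -0.19 and -0.11. Wdr43, Nop14, Rrp12 and the helicase gene Ddx10 overlapped, with differences of -0.35, -0.24, -0.07 and 0.02.

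Heatr1, another helical-repeat scaffold of the processome that also supports polymerase I transcription, was the exception. It read 10.54 and 10.69 with vehicle and 11.26 and 11.71 with the combination, and the nearest arrays of the 2 groups were 0.57 apart. Its difference was 0.87 (SE 0.20), or 1.83-fold higher, with an unadjusted p of 0.0090 and an adjusted p of 0.70 in limma, and it stayed between 0.65 and 1.10 without any 1 array. Heatr1, Utp4, Utp15, Wdr43 and Wdr75 belong to a single subcomplex, UTP-A, which binds the precursor first, and the other 4 were lower by 0.19 to 0.42. RefSeq places the galectin gene Lgals8 next to Heatr1, and Lgals8 read 8.47, 8.24, 9.06 and 9.11, a difference of 0.73 with an unadjusted limma p of 0.0052. RefSeq also has a pseudogene, Gm5928, inside Heatr1. Whether signal from a neighbour enters the Heatr1 probe set was not tested, and Lgals8 was looked up after the value of Heatr1 was seen.

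**Figure D4:**
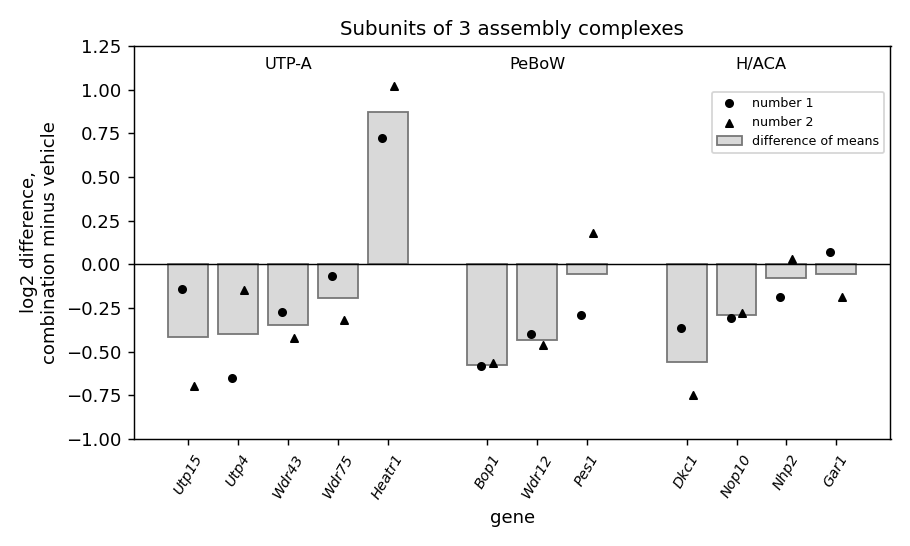
Log2 difference (combination minus vehicle) for the genes of UTP-A, PeBoW and the H/ACA core; bars are differences of the group means, circles the difference between arrays numbered 1 and triangles that between arrays numbered 2. The differences ran from -0.42 to -0.19 in UTP-A apart from Heatr1 at 0.87, from -0.57 to -0.05 in PeBoW and from -0.56 to -0.06 in H/ACA; the spread was not tested.

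The large subunit had 12 genes, all lower, of which 8 did not overlap (66.7%, against 13.9% of all features), with a median of -0.28. Bop1, a scaffold of the PeBoW complex needed to mature the 5.8S and 28S RNAs, read 10.95 and 11.08 with vehicle and 10.37 and 10.51 with the combination. Its difference was -0.57 (SE 0.14), 1.49-fold lower, almost the same between the arrays numbered 1 (-0.58) and those numbered 2 (-0.57), with an unadjusted limma p of 0.011. Wdr12, its partner in PeBoW, read 11.54, 11.21, 11.14 and 10.75, without overlap, and differed by -0.43. Pes1, the third protein of PeBoW, read 13.57, 13.08, 13.28 and 13.26, so that vehicle 2 was its lowest array, and differed by -0.05.

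Ppan, a factor for early precursors of the large subunit, read 8.57, 8.47, 7.87 and 8.21 and differed by -0.48 (SE 0.17), 1.40-fold lower. Nop2, an RNA methyltransferase, read 11.03, 11.20, 10.66 and 10.83, and Noc2l read 10.29, 10.03, 9.85 and 9.71. They differed by -0.37 and -0.38 without overlap. Rrs1, which helps to place the 5S RNA, Nop16 and the helicase gene Ddx18 were also without overlap, at -0.23, -0.18 and -0.15. The remaining genes, Noc3l, the GTPase gene Gnl2 and Rrp1b, overlapped and differed by -0.33, -0.21 and -0.11.

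The last group supplies building blocks. Srm, spermidine synthase, read 12.44 and 12.49 with vehicle and 12.03 and 11.99 with the combination, with little spread in either group. Its difference was -0.45 (SE 0.13), 1.37-fold lower, with an unadjusted limma p of 0.018. Cad, the enzyme that starts pyrimidine synthesis, read 9.40, 9.13, 8.90 and 8.57 and differed by -0.54 (SE 0.19), 1.45-fold lower. Odc1, ornithine decarboxylase, the entry step of polyamine synthesis, read 14.53, 13.89, 14.30 and 13.97 and differed by -0.08. Its 2 vehicle arrays lay farther apart than the group means.

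The genes of 7 further lists around the pathway were also mostly lower. These lists were made by topic and include genes that restrain it, such as Maf1 (-0.12) and Baz2a (0.16). Of 162 listed genes 148 were measured: 121 were lower (81.8%), 69 lay without overlap below vehicle (46.6%) and 3 above, with a median of -0.19. Among all features 44.6% were lower, 13.9% lay below and 20.4% above without overlap, and among other genes in the signal range of the 47 these shares were 62.1%, 23.4% and 11.8%. At an unadjusted limma p under 0.05, 20 of the 148 were lower and 0 higher, against 2.44% of all features and 5.37% of the genes in the signal range that were lower, and 0 passed at an adjusted p under 0.05. Higher at the unadjusted p were 2068 of the 65956 features and 333 of the 10092 genes in the signal range.

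Other polymerase I factors were near the background: 6 of 9 were lower (66.7%) and 2 without overlap (22.2%), while Ttf1, the termination factor, lay above vehicle on both arrays with a difference of 0.19. The lowest p-values in that list were those of Tcof1, the treacle protein that links polymerase I transcription to processing, at -0.45, and Taf1a, a subunit of the promoter selectivity factor, at -0.37. Among other polymerase III genes 15 of 17 were lower, and 11 did not overlap (64.7%, against 13.9% of all features). The 3 subunits above did overlap. Leading genes of the further list were the subunit gene Polr3f, at -0.57, and Gtf3a, the 5S-specific factor TFIIIA, at -0.58. In the other small subunit factors 29 of 40 were lower, with the RNA acetyltransferase gene Nat10 at -0.75 and the dimethyltransferase gene Dimt1 at -0.63. In the other large subunit factors 37 of 41 were lower. Of these, 9 had an unadjusted limma p under 0.05 (22.0% of the list, against 2.44% of all features), among them the giant ATPase gene Mdn1 at -0.74 and Mak16 at -0.47. The RNA exosome had 11 of 13 lower (Exosc1 -0.54, Exosc9 -0.34) and the list named snoRNP assembly 11 of 12 (Zfp593 -0.40, Nufip1 -0.42). The place of Zfp593 in that list is doubtful. Other polyamine and nucleotide synthesis had 12 of 16 lower, led by Ctps at -0.57 and the salvage gene Mtap at -0.67.

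**Figure D5:**
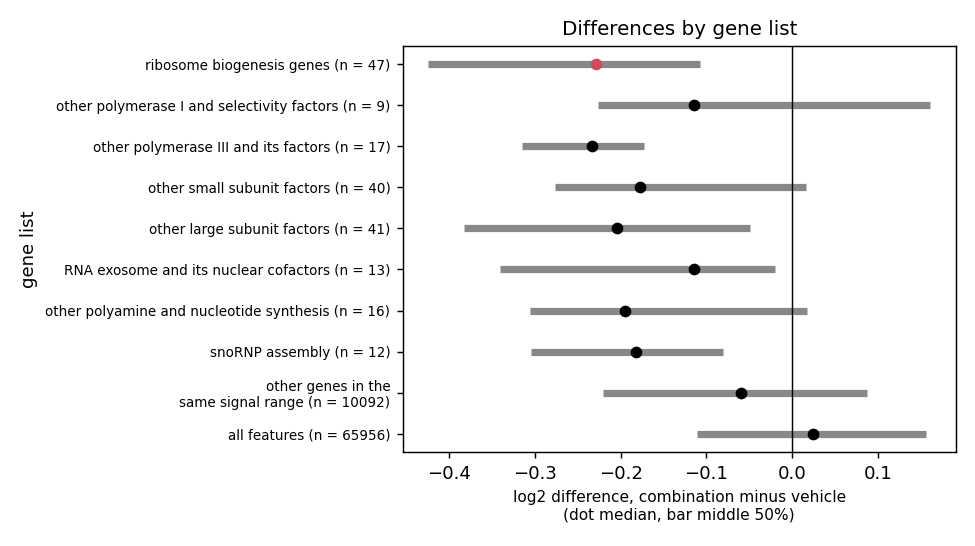
Median (dot) and middle 50% (bar) of the log2 difference, combination minus vehicle, for the 47 ribosome biogenesis genes, 7 further lists of the pathway, other genes in the same signal range and all features. The medians of all 8 pathway lists lie between -0.23 and -0.12, those of the signal range and of all features at -0.06 and 0.02.

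MYC and its partners, the known regulators of these genes, split. Myc itself read 12.09, 11.75, 11.31 and 10.999, without overlap, and differed by -0.77 (SE 0.20), 1.70-fold lower, and Max read 13.43, 13.18, 12.59 and 12.68, 1.59-fold lower. Mxd1, which competes with MYC for MAX, read 9.80, 8.80, 10.35 and 10.80, 2.42-fold higher, with an SE of 0.38. Of the 10 genes in this list, it was the only one higher at an unadjusted limma p under 0.05. Among all 65956 features, 2068 were higher at that p. Mxd1 was named after its value was seen. The adjusted limma p-values of Myc, Max and Mxd1 were 0.78, 0.69 and 0.81.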

How the data were processed

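RNA of 4 samples (10 ng each) was measured on 4 Affymetrix arrays, 1 per sample. The table deposited by the authors holds 1 log2 value per probe set and array. The submitters' processing notes name RMA and the Transcriptome Analysis Console, and their versions and any genome build were not given in the sources used here. Because RMA gives all arrays like distributions, a shift common to all genes is lost, and dim genes show compressed folds. Array medians were 4.36 to 4.44. Arrays have no read depth, and their number limits the precision.

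Of 72688 rows, 6732 control rows, recognised by identifier, were left out. Limma 3.58.1 in R 4.3.3 (lmFit, eBayes, two-sided, group as the only term) was fitted to the other 65956 features, with Benjamini-Hochberg adjustment over all and a threshold of 0.05. SEs are limma's. The fit was tested on simulated data. The members, lists and tests were chosen with earlier results of these data known. The list was not tested as a set; its counts stand beside those of all features. Given by array were genes with an unadjusted p under 0.05 and, per role, those with the lowest p and the least difference; others were added after their values were seen. From further pathway lists the 2 genes with the lowest p were named. Platform symbols were used, and updated symbols for the lists. Alternatives covered control rows, replicate block, variance prior, dim features, normalization, probe sets, symbols and each array left out.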

Additional observations from a re-analysis of the deposited data

How the results depend on the processing

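Under the 14 alternatives no gene of the 47 passed limma's adjusted threshold, and the count of lower genes stayed between 36 and 46 (43 after a second quantile normalization, 46 with arrays centred on their medians, where 56.2% of all features were lower). The median difference stayed between -0.34 and -0.12. The count lower at an unadjusted p under 0.05 was 5 with an intensity trend and 3 to 6 without 1 array. The count without overlap was 27 to 40 without 1 array, where a group has fewer arrays to overlap. With the replicate block, 12 genes were lower at an unadjusted p under 0.05 and 0 at an adjusted p. Number 1 minus number 2 correlated between vehicle and combination (r = 0.47 over 30145 genes, which are not independent replicates), but the labels do not say what a number shares. Some differences changed sign: Polr1c to 0.034 after the second quantile normalization and Polr3a to -0.026 with centred arrays. Without 1 array the ranges crossed 0 for 14 of the 47 genes, Ddx10 (-0.20 to 0.25), Gnl2 (-0.45 to 0.021), Nhp2 (-0.34 to 0.18), Polr1a (-0.71 to 0.086), Polr3g (-0.32 to 0.089), Rrp12 (-0.17 to 0.027), Rrp1b (-0.28 to 0.069), Gar1 (-0.25 to 0.14), Npm1 (-0.29 to 0.062), Odc1 (-0.39 to 0.24), Pes1 (-0.30 to 0.19), Polr1c (-0.16 to 0.12), Polr3a (-0.22 to 0.27) and Polr3b (-0.22 to 0.014). The cause was not tested. Such a fit leaves a lone array, assumed to vary like the other group.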
